A study of Mus musculus with 4 samples.

Results

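Fibroblast growth factor (FGF) receptors and ligands were followed in Py2T cells through 9 genes: the receptors Fgfr1, Fgfr2, Fgfr3 and Fgfr4, the ligands Fgf1, Fgf2, Fgf7 and Fgf18, and the FGF carrier Fgfbp1. Each gene was represented by the array probe set that carries its symbol alone, and each of the 9 has a single such probe set, out of 19938 genes measured in this way. Py2T is a mouse breast cancer cell line, established from a mammary tumour of a mouse that expresses the polyoma middle T antigen under the MMTV promoter, and its epithelial cells undergo an epithelial to mesenchymal transition (EMT) under transforming growth factor β (TGFβ). The 2 untreated arrays come from cells kept in DMEM with glutamine, penicillin, streptomycin and 10% FCS, and the 2 TGFβ arrays from the same line in the same medium given 2 ng/ml TGFβ for 5 days. Total RNA was measured on Affymetrix arrays as log2 values from robust multi-array averaging (RMA), a scale on which a difference of 1 is a 2-fold difference in signal. The labels call the replicates biological and do not describe how cultures were kept apart, so p-values measure only the spread between these samples.

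FGFs are secreted proteins that bind receptor tyrosine kinases together with heparan sulfate chains of the cell surface and matrix, and the activated receptors signal through Ras and the ERK kinases. In epithelial organs such as the mammary gland, Fgfr2 in its IIIb splice form is the receptor for Fgf7 and Fgf10, which are made by the surrounding stroma. Mesenchymal cells typically carry IIIc splice forms of Fgfr1 and Fgfr2, which bind ligands such as Fgf2. The splice factors Esrp1 and Esrp2 favour the epithelial form. A value for a whole gene, as here, does not separate the splice forms.

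After TGFβ, 3 of the 9 genes passed limma's moderated test at an adjusted p under 0.05, against 13.6% of all genes. These genes and the lists below were chosen with earlier results of these data known, so such shares are descriptions only. The 2 that rose compare with 6.49% of all genes called higher, and the 1 that fell with 7.15% called lower; Fgf2 and Fgfbp1 also differed by 2-fold or more, as did 3.4% of all genes. Fgf2, a ligand without a classical signal peptide that is stored in the matrix, rose 4.05-fold. Fgfr1, a receptor for it, rose 1.54-fold. Fgfbp1, a secreted protein that binds Fgf2 and releases it from the matrix, was 7.17-fold lower. None of Fgfr2, Fgfr3, Fgfr4, Fgf1, Fgf7 and Fgf18 passed at this threshold, and their differences lay between -0.31 and 0.21 on the log2 scale. The median difference over the 9 genes was 0.0095, beside 0.0097 over all genes tested.

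**Figure D1:**
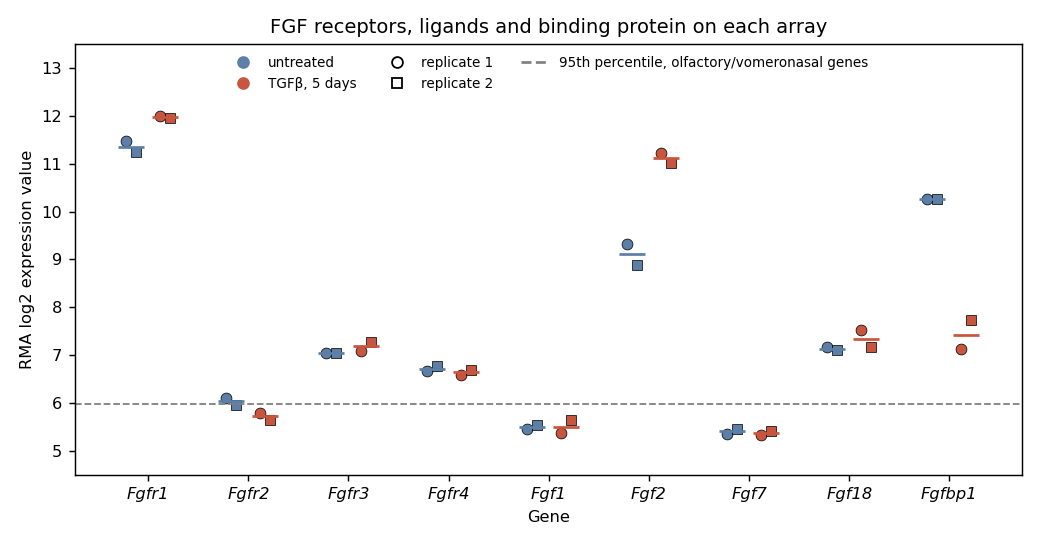
RMA log2 expression value (vertical axis) of each of the 9 genes on the 4 arrays, with circles for replicate 1, squares for replicate 2 and short lines for the group means. Fgfr1 and Fgf2 lie higher on both TGFβ arrays and Fgfbp1 lies lower, while Fgf1 and Fgf7 lie under the dashed line on every array; the line is the 95th percentile of olfactory and vomeronasal receptor genes, 5.98.

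The arrays gave values from 3.33 to 14.3, with medians over all probe sets within 6.74 to 6.76. The luminal keratins Krt8, Krt18 and Krt7 lay above 13 on every array, while Krt19, on the same list, read from 6.01 to 6.11. Among basal keratins, Krt14 read 10.79 and 11.49 in untreated and 10.16 and 9.36 in TGFβ arrays. Krt5 and Krt15 read from 6.07 to 6.42. The counts of marker calls below stand beside 7.15% of all genes called lower and 6.49% called higher. The marker lists are short, so these counts are descriptions only. Of 8 measured luminal markers 3 were called lower (Epcam, Cdh1 and Esr1), 0 were higher and Elf5 was near background in both groups; without untreated replicate 1 Cdh1 did not pass (difference -1.24, adjusted p = 0.057). Of 7 basal markers 1, Krt14, was called lower (not with untreated replicate 2 or TGFβ replicate 2 left out, adjusted p = 0.12 and 0.099) and 0 higher. Of 5 endothelial markers 4 were near background in both groups, as were 2 of 4 adipocyte markers and 2 of 6 measured leukocyte markers (Ptprc and Adgre1), and none of these was called. The macrophage marker Cd68, on the leukocyte list, read 9.63 and 8.87 in untreated and 7.60 and 8.33 in TGFβ arrays (difference -1.29, adjusted p = 0.052). It passed without the dimmest 25% of genes (adjusted p = 0.035), without the dimmer 50% (adjusted p = 0.032), and with untreated replicate 2 (difference -1.67, adjusted p = 0.025) or TGFβ replicate 2 (difference -1.65, adjusted p = 0.031) left out. Of 8 fibroblast markers 2 were called higher (Pdgfrb and Col1a1), 0 lower, and Dcn and Lum were near background in both groups. Col1a1 did not pass with any 1 array other than untreated replicate 2 left out (adjusted p from 0.061 to 0.13). The summed log2 values of those 8 were 53.6 and 53.8 in untreated and 55.0 and 56.3 in TGFβ arrays. The sums of the luminal list ran from 83.3 to 83.8 without and 79.1 to 80.6 with TGFβ, and those of the leukocyte list from 39.5 to 41.1 and 38.0 to 39.2. The part of these markers in the FGF results was not tested. In bulk RNA a change in the mix of cells and a change in RNA per cell cannot be told apart.

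No detection calls come with the values. As a guide to background, the 1194 olfactory and vomeronasal receptor genes, whose main site of expression is the nose, had a median of 4.63 and a 95th percentile of 5.98, taken here as the level near background. Probe sets differ in brightness for reasons other than RNA amount, so levels of different genes are not ranked against each other.

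Among the receptors, Fgfr1 read 11.48 and 11.23 in untreated cells and 12.00 and 11.96 after TGFβ. Both TGFβ arrays lay above both untreated arrays, and the TGFβ arrays were closer together than the untreated ones. The log2 difference was 0.62 ± 0.10 (SE, 95% interval 0.37 to 0.88, adjusted p = 0.014). The rise stood at rank 654 of the 1294 genes called higher. Its call was lost without TGFβ replicate 1, at 0.60 (adjusted p = 0.055), where the lone array is assumed to vary like the other group.

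Fgfr2, the epithelial receptor in its IIIb form, read 6.11 and 5.96 in untreated cells and 5.79 and 5.65 after TGFβ. Both TGFβ arrays lay below both untreated arrays, which also holds, in one direction or the other, for 52.6% of all genes. The log2 difference of -0.31 (95% interval -0.54 to -0.08) did not pass (adjusted p = 0.088), nor did it under any of the 12 alternatives in which the gene was tested. The untreated mean of 6.03 was just over the background level and the TGFβ mean of 5.72 under it, so a fall would be hard to size on this probe set.

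Fgfr3, a receptor best known as a brake on bone growth, read 7.03 and 7.05 without TGFβ and 7.09 and 7.27 with it. The groups did not overlap, but the difference of 0.14 (95% interval -0.08 to 0.36) did not pass (adjusted p = 0.43). Fgfr4, the liver receptor for hormone-like FGFs, read 6.67 and 6.76 in untreated cells and 6.59 and 6.68 in treated cells, with overlapping groups. Its difference was -0.08 (95% interval -0.28 to 0.12, adjusted p = 0.66). For these 2 receptors the intervals leave room for changes in signal of at most 0.36 in size on the log2 scale. Fgfr4's group means of 6.72 and 6.64 lay over the background level but under the 99th percentile of the olfactory and vomeronasal genes, 6.79. A change in its RNA would therefore be hard to size.

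Of the ligands, Fgf2 read 9.33 and 8.89 in untreated cells and 11.23 and 11.02 in TGFβ-treated cells. The groups were separated by more than the spread within either of them, with SDs of 0.31 and 0.15 (n = 2 each). The log2 difference was 2.02 ± 0.16 (SE, 95% interval 1.62 to 2.42, adjusted p = 0.0015), rank 68 among the genes called higher. The call held under all 13 alternatives, with differences from 1.80 to 2.24. Fgf2 shares its locus with the antisense gene Nudt6, which differed by 0.15 (adjusted p = 0.32), a value looked up after that of Fgf2 was known.

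Promoter windows are shown for both genes that changed by over 2-fold, so these windows were picked by the values of their genes. Each holds the 250 bases before and the 50 bases from the annotated start, 5′ to 3′ along the gene, from RefSeq on build GRCm38.p6. Capitals mark the motifs found among those searched on both strands. The TEAD motif was spelled GGAATG, the AP-1 motif was TGANTCA, the Smad motif was CAGAC, the Zeb motif was CACCTG, the GC box was GGGCGG and the TATA box was TATAAA; no matches overlap in these windows.
Fgf2, chr3:37348403-37348702, plus strand: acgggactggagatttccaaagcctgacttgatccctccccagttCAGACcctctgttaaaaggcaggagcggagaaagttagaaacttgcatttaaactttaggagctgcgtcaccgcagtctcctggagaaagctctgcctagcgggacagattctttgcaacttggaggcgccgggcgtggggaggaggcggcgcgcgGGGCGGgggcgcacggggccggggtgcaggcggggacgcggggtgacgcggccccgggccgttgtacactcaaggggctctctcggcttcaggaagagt
Fgfbp1, chr5:43981750-43982049, minus strand: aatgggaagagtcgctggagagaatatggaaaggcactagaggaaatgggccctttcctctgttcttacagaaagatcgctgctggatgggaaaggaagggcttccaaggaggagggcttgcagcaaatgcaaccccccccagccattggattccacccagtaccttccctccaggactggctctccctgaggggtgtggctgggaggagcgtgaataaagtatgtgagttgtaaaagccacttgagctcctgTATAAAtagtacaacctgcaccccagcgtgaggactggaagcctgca

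The Fgf2 window holds 1 Smad motif at position -205 from the start and 1 GC box at -49, with 62.7% GC and 24 CpG dinucleotides. The Fgfbp1 window holds 1 TATA box beginning at position 4 after the annotated start, with 53.3% GC and 4 CpG. Neither window holds the TEAD, AP-1 or Zeb letters. Over all 32851 promoter windows of this length, with a median of 52.7% GC and 7 CpG, the Smad letters occur in 49.6%, the GC box in 35.7%, the Zeb motif in 20.2%, the TEAD motif in 14.7%, the TATA box in 13.6% and the AP-1 motif in 7.81%. The matches are letters in a window and do not show that a factor binds there. Among genes not called, windows of Fgfr2, Fgf7, Fgfr4 and Fgf18 held 43.7%, 45.7%, 65.3% and 78.7% GC. Those of Fgfr3 held 69.7% and 73.0%. Whether base composition has a part in the changes was not tested. Promoter windows were searched for 7 of the 9 genes, without Fgfr1 and Fgf1. The selection left out a whole chromosome, so this count does not show that windows are lacking.

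Fgf18, a ligand of skeletal and lung development, read 7.17 and 7.10 in untreated cells and 7.52 and 7.18 after TGFβ. The groups were separated by less than the gap between the TGFβ arrays, and the difference of 0.21 (95% interval -0.09 to 0.52) did not pass (adjusted p = 0.38). Fgf1, a ligand that binds all FGF receptors, read 5.45 and 5.54 against 5.36 and 5.65, a difference of 0.01 (95% interval -0.27 to 0.29, adjusted p = 0.98). Fgf7, the keratinocyte growth factor that stroma supplies to epithelium, read 5.36 and 5.46 against 5.33 and 5.42, a difference of -0.04 (95% interval -0.24 to 0.16, adjusted p = 0.86). Fgf1 and Fgf7 overlapped between groups and had both group means near background, so a low level that changed would not be detectable here.

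Fgfbp1 read 10.27 on both untreated arrays and 7.13 and 7.73 on the TGFβ arrays. Both TGFβ values were more than 2 log2 units under the untreated ones, and they were further apart from each other (SD 0.42) than the untreated pair (SD 3.5e-05). The log2 difference was -2.84 ± 0.19 (SE, 95% interval -3.31 to -2.37, adjusted p = 9.0e-04). Fgfbp1 stood at rank 18 of the 1426 genes called lower. Its call held under all 13 alternatives, with differences from -3.14 to -2.54. Its relative Fgfbp3, near 6.7 on all arrays, differed by -0.04 (95% interval -0.25 to 0.16).

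**Figure D2:**
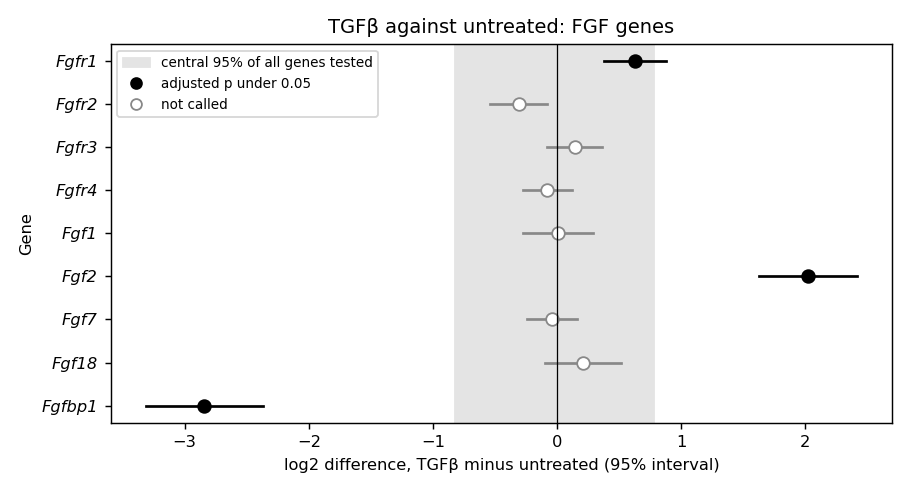
log2 difference, TGFβ minus untreated (horizontal axis), of each of the 9 genes with its 95% interval from the limma fit; filled points passed at adjusted p under 0.05 and the grey band holds the central 95% of all genes tested, from -0.82 to 0.78. Fgf2 (2.02) and Fgfbp1 (-2.84) lie outside the band and Fgfr1 (0.62) inside it.

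The other 18 FGF ligand genes on the array were mostly not called, with 1 higher, 1 lower and 16 that did not pass (median -0.02). That is 11.1% called, near the 13.6% of all genes. Fgf15, the mouse counterpart of the human enterohepatic hormone FGF19, read 9.06 and 8.91 in untreated cells and 7.07 and 6.86 after TGFβ. It fell by 2.02 ± 0.10 (SE) on the log2 scale (adjusted p = 5.0e-04), nearly the size of the Fgf2 rise with the opposite sign. Fgf5, a ligand known as the stop signal of hair growth, read 9.46 and 9.66 without TGFβ and 10.32 and 10.80 with it. It rose by 1.00 ± 0.17 (adjusted p = 0.015) and did not pass when untreated replicate 1 was left out (difference 0.90, adjusted p = 0.060), which left Fgf15 as the 1 call of these 18 genes. Over all 22 FGF ligand genes, which include the intracellular Fgf11 to Fgf14, 9 had both group means near background.

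Surface proteins that bind FGF receptors changed in both directions. Of 13 measured coreceptors and modulators 3 rose, 2 fell and 8 did not pass (median -0.04), or 38.5% called beside 13.6% of all genes. Ncam1, an adhesion molecule that can bind FGF receptors, rose from 9.25 and 9.39 to 11.61 and 11.21, a difference of 2.09 (adjusted p = 0.0010). Flrt2, a leucine-rich membrane protein whose family binds FGF receptors, read 9.87 and 10.07 in untreated and 11.67 and 11.20 in treated cells (1.47, adjusted p = 0.0045). Fgfrl1, an FGF receptor relative without a kinase domain, rose by 0.72 from 8.96 and 8.61 to 9.58 and 9.45 (adjusted p = 0.020). Without TGFβ replicate 1 Fgfrl1 differed by 0.66 and did not pass (adjusted p = 0.077). N-cadherin, Cdh2, which can bind Fgfr1 and slow its removal from the membrane, fell by 1.42 (adjusted p = 0.0059), from 10.10 and 10.14 to 8.97 and 8.43. L1cam, another adhesion molecule, fell by 0.51 (adjusted p = 0.042). It did not pass with untreated replicate 2 left out (difference -0.35, adjusted p = 0.13), nor with TGFβ replicate 1 (difference -0.49, adjusted p = 0.13) or TGFβ replicate 2 (difference -0.53, adjusted p = 0.096) left out. The klothos Kl and Klb, which hormone-like FGFs such as Fgf15 need to bind their receptors, were near background in both groups. Without TGFβ replicate 1 the list held 3 calls in place of 5.

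Genes of heparan sulfate, the sugar chain that holds FGF and receptor together, also went both ways. Of 13 core proteins 2 rose, 4 fell and 7 did not pass (median -0.0047), or 46.2% called beside 13.6% of all genes. Sdc3, a syndecan best known from neurons, rose from 8.94 and 8.76 to 10.50 and 9.79 (1.29, adjusted p = 0.018). Dropping untreated replicate 2 ended that call (difference 1.20, adjusted p = 0.058). Gpc1, a glypican that can act as an FGF coreceptor, rose by 0.58 (adjusted p = 0.0098), from 11.42 and 11.46 to 11.95 and 12.10, and missed the threshold once untreated replicate 1 was dropped (difference 0.56, adjusted p = 0.052). The glypican Gpc4 fell from 7.38 and 7.08 to 5.70 and 5.58, under the background level (-1.59, adjusted p = 0.0012). Gpc6 fell by 0.91 (adjusted p = 0.0059). Agrn, the core protein agrin, fell by 0.53 at an adjusted p of 0.04995, and missed it once untreated replicate 1 was dropped (difference -0.44, adjusted p = 0.20), likewise for untreated replicate 2 (difference -0.63, adjusted p = 0.073) and TGFβ replicate 1 (difference -0.38, adjusted p = 0.14). The main epithelial syndecan Sdc1 differed by 0.21 (adjusted p = 0.13), and Sdc4 by -0.0047 (95% interval -0.20 to 0.19). The 6 calls of the core proteins became 3 without either untreated array.

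Of 28 measured enzymes that build or edit the chains 6 rose, 4 fell and 18 did not pass (median 0.064). That is 35.7% called, beside 13.6% of all genes. Sulf2, an extracellular sulfatase that removes sulfate groups FGF signalling depends on, had the largest fall, from 9.64 and 9.30 to 7.07 and 7.31. Its log2 difference was -2.28 ± 0.14 (SE, adjusted p = 6.8e-04). Sulf1, its closest relative, read 6.47 and 6.21 in untreated cells and 7.05 and 7.04 after TGFβ, a rise of 0.70 (adjusted p = 0.011), and is given here after its value was seen. The sulfotransferase Hs3st1 fell by 1.70 (8.68 and 8.27 to 6.66 and 6.88, adjusted p = 0.0023), while Hs3st5, of the same family, rose by 0.86 (adjusted p = 0.0037) from near background. Ext1, a subunit of the polymerase that extends the chain, rose from 11.03 and 10.97 to 12.06 and 12.04 (1.05, adjusted p = 0.0010). Its partner Ext2 differed by -0.002 (adjusted p = 0.99). Ndst3, which starts sulfation of the chain, rose by 1.13 (adjusted p = 0.0013), from 7.73 and 7.58 to 8.80 and 8.76. The heparanase Hpse, which cuts the chain, fell by 0.46 (adjusted p = 0.039), to a TGFβ mean of 5.85 under the background level, so the size of that fall is uncertain. Hpse did not pass with untreated replicate 2 left out (difference -0.33, adjusted p = 0.14), nor with either TGFβ array left out (difference -0.46 both times, adjusted p = 0.11 and 0.10). The 10 calls of these enzymes became 6 without untreated replicate 2 and 6 without TGFβ replicate 1.

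**Figure D3:**
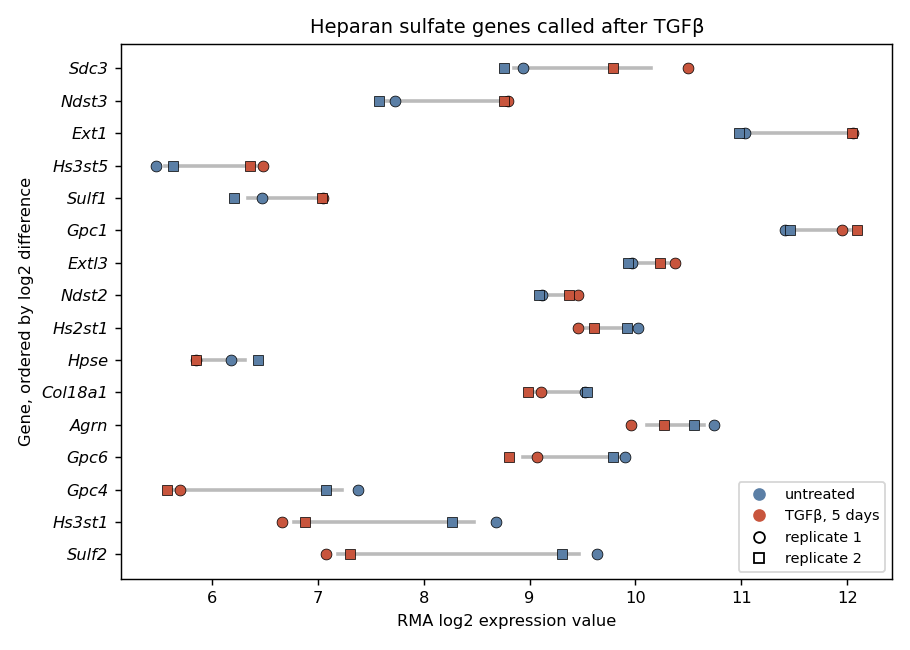
RMA log2 expression value (horizontal axis) on each array of the core protein and enzyme genes of heparan sulfate that passed at adjusted p under 0.05, ordered by difference, with circles for replicate 1, squares for replicate 2 and grey bars joining the group means. Sulf2 and Hs3st1 at the bottom have differences of -2.28 and -1.70, and Sdc3, Ndst3 and Ext1 at the top rose by 1.29, 1.13 and 1.05.

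Both regulators of the epithelial receptor exon fell. Esrp1 read 11.24 and 11.13 in untreated cells and 9.50 and 10.05 after TGFβ, and Esrp2 read 9.50 and 9.29 against 8.22 and 8.32. Esrp1 differed by -1.41 (adjusted p = 0.0068) and Esrp2 by -1.12 (adjusted p = 0.0020). Of 18 measured factors reported to act on the alternative receptor exons or on EMT splicing, those were the 2 called lower, 1 was called higher and 15 did not pass (median -0.02). That is 16.7% called, near the 13.6% of all genes. The gene that rose was Ptbp2, the neuronal form of a splicing repressor (0.71, adjusted p = 0.026). It missed the threshold once untreated replicate 1 (difference 0.63, adjusted p = 0.10) or replicate 2 (difference 0.78, adjusted p = 0.052) was dropped. Whether exon use of the receptors changed was not tested, because the values are per gene.

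Downstream, 29 signal transducers of FGF receptors were measured, of which 8 rose, 1 fell and 20 did not pass (median 0.11, the highest of the lists examined). That is 31.0% called, beside 13.6% of all genes. The 9 calls became 7 with the replicate numbers as a block and 2 at 2-fold or more. The highest count under any alternative was 10. Gab2, a docking protein that links receptors to phosphatidylinositol 3-kinase, rose from 8.77 and 8.32 to 10.10 and 10.25 (1.63, adjusted p = 0.0026). Ksr1, a scaffold of the ERK cascade, rose by 1.21 from 8.03 and 8.09 to 9.19 and 9.35 (adjusted p = 0.0012). Map2k1, the kinase directly above ERK, rose by 0.86 from 10.68 and 10.61 to 11.57 and 11.44 (adjusted p = 0.0026). Pik3r1, the regulatory subunit of phosphatidylinositol 3-kinase, was the 1 that fell, from 9.86 and 9.91 to 9.26 and 9.07 (-0.72, adjusted p = 0.0063). These proteins serve many receptors besides those for FGF.

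Feedback inhibitors and target genes of ERK signalling went both ways, with 36.4% called beside 13.6% of all genes. Of 22 measured genes 4 rose, 4 fell and 14 did not pass (median -0.07), and the 8 calls became 3 without untreated replicate 1 and 5 without TGFβ replicate 2. Spry1, a Sprouty inhibitor induced by FGF signalling, fell from 9.70 and 9.46 to 7.65 and 7.61, a log2 difference of -1.96 ± 0.10 (SE, adjusted p = 4.9e-04). Spry2 and Spry4, 2 other Sprouty genes, differed by -0.17 (adjusted p = 0.43) and 0.25 (adjusted p = 0.28). Dusp4, a phosphatase that inactivates ERK, rose from 10.23 and 9.78 to 11.36 and 11.61 (1.48, adjusted p = 0.0043). Spred2, a membrane inhibitor of the pathway, rose by 1.04 (adjusted p = 0.0011), from 10.85 and 10.79 to 11.86 and 11.84. Ier3, an early response gene, rose by 0.55 (adjusted p = 0.016), which did not hold when untreated replicate 1 was left out (difference 0.50, adjusted p = 0.080).

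Dusp6, the ERK phosphatase widely used as a readout of FGF signalling, fell by 0.31 (11.18 and 11.10 to 10.83 on both TGFβ arrays) at an adjusted p of 0.0495. Leaving out any 1 of the 4 arrays ended the call, with differences from -0.35 to -0.27 and adjusted p from 0.13 to 0.25. It was also lost after repeated quantile normalization (adjusted p = 0.051) and without the dimmest 25% of genes (adjusted p = 0.054). Etv4 and Etv5, transcription factors induced by FGF signalling, differed by 0.07 (adjusted p = 0.71) and 0.24 (adjusted p = 0.092). Phlda3, a p53-induced inhibitor of Akt, fell by 0.59 (adjusted p = 0.013) and missed the threshold once untreated replicate 1 was dropped (difference -0.58, adjusted p = 0.059). Cyclin D1, Ccnd1, was close to the top of the array's range and fell by 0.37 (adjusted p = 0.025), which ended when any 1 of the 4 arrays was left out (adjusted p from 0.072 to 0.13).

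**Figure D4:**
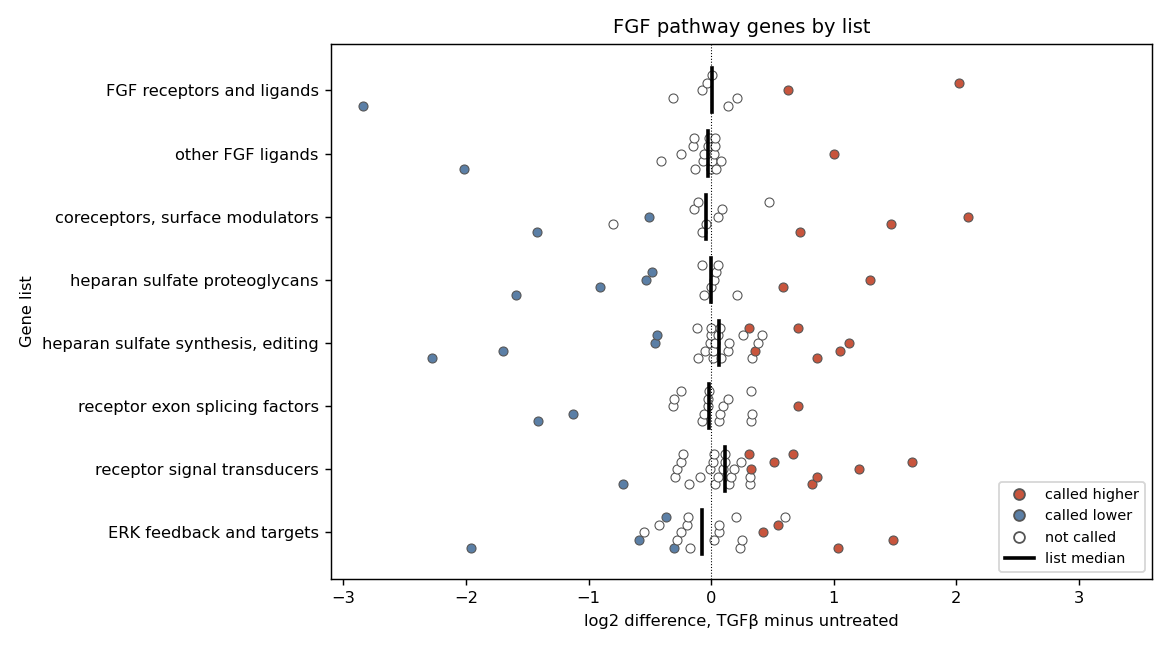
log2 difference, TGFβ minus untreated (horizontal axis), of every measured gene in the 9-gene set and the 7 further lists, with red for called higher, blue for called lower, open for not called and a black bar for the list median. Medians lie between -0.07 and 0.11, and each of the 8 rows holds both rises and falls.

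Over the 7 further lists together 25 of 141 measured genes rose and 18 fell, or 30.5%. All lists were chosen with earlier results of these data known, so their shares are descriptions and not a test of the pathway. The share called ran from 11.1% of the other ligands and 16.7% of the splicing factors to 46.2% of the core proteins. The background was 13.6% over all genes and 19.2% over the 13925 genes whose brighter group lay above the background level. Array brightness of the lists was not matched further. Of the 153 listed genes, 12 are not analysed here.

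Genes whose values ran most like those of Fgfr1 and Fgf2 were sought by the Euclidean distance between values centred on each gene's mean, over 4 arrays and 13232 genes. Nearest to Fgfr1 were Dyrk3 (distance 0.022), Dnajb9 (0.029) and Cilk1 (0.031), with differences of 0.62, 0.64 and 0.60. Nearest to Fgf2 were Igsf11 (0.14), Plxdc1 (0.17) and Adgra1 (0.18), with differences of 1.93, 1.86 and 2.15. With 4 arrays in 2 groups, such likeness reflects mainly the size of the group difference.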

How the data were processed

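RNA of 4 Py2T samples was measured on Affymetrix arrays. Per the submitters' processing notes, the authors deposited log2 values made with RMA in the R package oligo; neither tool's version, nor the probe-set annotation or build, is stated there. The number of arrays limits precision. Of 35556 probe sets 21789 carry 1 symbol in the array's gene table, 1621 several and 12146 none. The brightest single-symbol probe set stood for each of 19938 genes. Entrez identifiers of 19856 matched the RefSeq mouse table.

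TGFβ and untreated arrays were fitted by limma 3.58.1 under R 4.3.3 (lmFit and eBayes, Benjamini-Hochberg adjusted over all genes, threshold 0.05), tested on simulated data. Exact permutation of 2 against 2 arrays gives no two-sided p below 0.333 and was not used. The 9 genes and all lists were chosen with earlier results of these data known. Named genes are the 9, 13 set genes, up to 3 largest called rises and falls per list, and the 3 genes nearest to Fgfr1 and to Fgf2. Marker genes, the 2 klothos, Ext2, Sulf1, Nudt6 and the neighbouring genes were picked in addition. Alternatives covered scaling, dim-gene filters, probe-set choice, variance moderation, a replicate block, a 2-fold threshold and each array left out. Deviations of same-numbered arrays from their group means correlated at -0.21.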

Additional observations from a re-analysis of the deposited data

How the results depend on the processing

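Of 100 values for the 9 FGF genes under the alternatives listed above other than the 2-fold threshold, 99 stayed on the same side of the threshold and 1, Fgfr1 without TGFβ replicate 1, did not pass. The genes called numbered 2720, against 1624 with the replicate block, 1536 when all 35556 probe sets were tested by identifier, 677 at 2-fold or more, and 1535 to 2260 with 1 array left out (1535 and 1764 for untreated replicates 1 and 2, 1811 and 2260 for TGFβ replicates 1 and 2). The 9 FGF genes gave 3 calls, 3 with the replicate block, 2 at 2-fold or more (Fgfr1 was lost), and 2 to 3 with 1 array left out. The further lists gave 43 calls, 31 with the replicate block, 17 at 2-fold or more, and 29 to 41 with 1 array left out. Named genes that did not pass with the replicate block were Dusp6, L1cam, Agrn, Hpse, Ptbp2, Ccnd1, Nsd3, Plpp5, Col1a1, Esr1 and Krt14 (adjusted p from 0.062 to 0.12). Scaling, filters, probe-set choice or variance moderation also ended the calls of Agrn (adjusted p from 0.0504 to 0.071), L1cam (0.0501), Krt14 (0.11) and Plpp5 (0.052 and 0.055). The labels do not say whether replicate numbers pair the arrays. Deviations of same-numbered arrays correlated at -0.21, which with 2 arrays per group cannot settle it. A crossed pairing, chosen after seeing the data, gave 3640, 3 and 56 calls. Both group means lay near background for 2 of the 9 genes, and for 4 with the 99th percentile of receptor genes as the level. Over the 9 genes and the lists, 72 of 1743 values under those alternatives, again without the 2-fold threshold, lost a call, 19 gained one and 0 reversed.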

Other observations

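Genes next to the 9 on their chromosomes were looked at after the values above were known, taking the 3 nearest protein-coding genes measured on each side in the RefSeq order. Of 54 neighbours 4 were called higher and 5 lower (16.7%, beside 13.6% of all genes). Bst1, an ectoenzyme that lies next to Fgfbp1 among the measured genes, had a mean of 9.32 in untreated cells and 5.92 after TGFβ, a log2 difference of -3.40 (adjusted p = 6.8e-04); the TGFβ mean was under the background level, so the size of the fall is uncertain. Prom1, on the other side of Fgfbp1, differed by 0.11 (adjusted p = 0.70). Spry1, the third measured gene beyond Fgf2, fell by 1.96 while Fgf2 rose by 2.02, and Nudt6 and Spata5 between them differed by 0.15 and 0.09. Around Fgfr1 3 of 6 neighbours were called higher, beside 6.49% of all genes. That was the most around any of the 9 genes, and it was singled out after the values were seen. The neighbours called were Plekha2 (1.02, adjusted p = 0.0072), Nsd3 (0.36, adjusted p = 0.044) and Plpp5 (0.30, adjusted p = 0.046). Leaving out either untreated array or TGFβ replicate 1 ended the calls of Nsd3 (adjusted p from 0.12 to 0.20) and Plpp5 (adjusted p from 0.14 to 0.21), and leaving out TGFβ replicate 2 ended that of Plpp5 (adjusted p = 0.11).

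Of the 6 measured genes around Fgf15, 3 were called lower and 0 higher, beside 7.15% and 6.49% of all genes. On one side LTO1 had a mean of 9.87 in untreated and 8.33 in TGFβ-treated cells (-1.54, adjusted p = 5.2e-04), followed by Ccnd1 (-0.37), whose call ended with any 1 array left out. On the other side Fgf4 (-0.41, adjusted p = 0.087) and Fgf3 (-0.14, adjusted p = 0.52) did not pass, and Ano1, a chloride channel, fell by 0.73 (adjusted p = 0.0034). Fgf4 passed without TGFβ replicate 2, at -0.55 (adjusted p = 0.043). Tpcn2, next to Ccnd1, differed by 0.00060.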
